A study of Gallus gallus with 205 samples.

Results

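Genes of DNA replication and of mitosis were followed across single cells of the chicken embryo at the primitive streak stage. The set holds 18 listed names of S phase genes and 18 of mitosis genes, given by name. Of these 36 names, 35 were found in both deposited count tables, 17 for S phase and 18 for mitosis, among 20581 genes common to the tables; CDC6 was not matched and has no value here.

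In each cell cycle, DNA is copied once in S phase and the copies are parted in mitosis. Origins are licensed when CDT1 helps to load the ring of MCM2 to MCM7, the replicative helicase, onto DNA, and geminin (GMNN) blocks CDT1 from doing so again. Mitosis is driven by CDK1 with its B-type cyclins, and many transcripts of spindle and kinetochore proteins are made mostly in G2 and M phase, whereas those for replication and for making deoxynucleotides peak around the start of S phase. The early avian epiblast and streak are known as rapidly dividing tissues, and cells that pass through the streak form mesoderm and endoderm. The roles given below are those known from vertebrate cells.

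The data are expected counts per gene in 205 cells from chicken embryos of the White Leghorn breed, at Hamburger-Hamilton stage 4 and from eggs incubated for 20 to 27 hours, with no treatment or genetic change named. Streak cells, from the dissected primitive streak, form the title series cPS (27 cells), cPS1 (37), cPS2 (59) and cPS3 (52), 175 in all, and cells of the remaining area pellucida form the series cSR (30), of which 6 also carry an epiblast label. The labels name no embryo and leave the series numbers unexplained, so each tissue is 1 sample, cells are not replicates, and no difference below has a test or a replicate check. Library identifiers fall into 4 blocks: cPS and cSR share blocks 1 and 2, cPS1 and part of cPS2 lie in block 3, and the rest of cPS2 and cPS3 lie in block 4.

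A cell held 201170 to 4552697 expected counts (median 2459318), and 5 cells had fewer than 1000000. Levels are given as counts in 1000000 (CPM), either per cell or pooled, where a series' counts of a gene are divided by its total counts. A gene was called detected in a cell at 10 CPM or more. The 95% intervals are exact Poisson for pooled CPM and exact Clopper-Pearson for shares of cells. The Poisson intervals cover counting error only, since no molecular identifiers are described. The Clopper-Pearson intervals cover only the drawing of cells, taken as independent, and neither kind covers differences between embryos. T, the Brachyury gene and a streak marker, had a median of 1944 CPM in cPS, 2645 in cPS1, 1369 in cPS2 and 1754 in cPS3, against 486 CPM in cSR, where 96.7% of cells still passed 10 CPM. CHRD, which encodes the BMP antagonist chordin of the node and anterior streak, was detected in 25.1% of streak cells and in 0 of 30 cSR cells.

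Both groups of genes were transcribed throughout. At 10 CPM or more a cell had 5 to 17 of the 17 S phase genes (median 14) and 9 to 18 of the 18 mitosis genes (median 17), and the 35 genes together made up 0.457% to 1.61% of a cell's counts (median 0.934%). PCNA, TOP2A, CDK1 and BIRC5 were detected in 100% of cells in every series. Many of the other genes were under 10 CPM in some cells and far above it in others of the same series.

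Among the helicase genes, MCM6 was detected in at least 98.1% of cells of each series. Its median per cell was 317 CPM in cPS, 423 in cPS1, 565 in cPS2 and 424 in cPS3, against 348 CPM in cSR. Cells ranged from 5.70 to 1976 CPM in the streak and from 30.9 to 1013 CPM in cSR, so the series overlapped almost fully. MCM3 was detected in far fewer cells, with shares of 40.7% in cPS, 45.9% in cPS1, 42.4% in cPS2 and 57.7% in cPS3, against 60% in cSR. Its pooled level was 24.8 CPM (23.6 to 25.95) in cPS, 29.6 in cPS1, 27.6 in cPS2 and 62.2 (60.8 to 63.6) in cPS3, against 24.6 CPM (23.5 to 25.8) in cSR. cPS3 thus stood above the other 4 series in pooled MCM3, and 1 cell held 40.96% of the cPS counts. The pooled level of MCM4 was 306 CPM in cPS, 317 in cPS1, 257 in cPS2 and 259.7 in cPS3, against 193 CPM in cSR, and its median per cell was at least 224 CPM in each streak series and 116.99 CPM in cSR. MCM2 was detected in 77.97% of cPS2 cells and in 89.2% or more of the cells of each of the other streak series, against 90% in cSR. MCM5 was detected in 86.5% to 96.3% of cells over the streak series and in 93.3% of cSR cells.

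CDT1, the loading factor, was the member detected in the smallest share of cells over all series, 31.2%. It was detected in 29.6% of cells in cPS, 40.5% in cPS1, 28.8% in cPS2 and 32.7% in cPS3, against 23.3% in cSR, with wide intervals (13.8% to 50.2% in cPS and 9.93% to 42.3% in cSR). GMNN, its inhibitor, was detected in 92.6% of cells in cPS, 86.5% in cPS1, 83.1% in cPS2 and 94.2% in cPS3, against 100% of 30 cells in cSR. GINS1, a subunit of the GINS complex that joins the helicase at the fork, was detected in 18.5% of cPS cells (6.30% to 38.1%), 21.6% of cPS1, 30.5% of cPS2 and 48.1% of cPS3 cells (34.01% to 62.4%), against 36.7% of cSR cells (19.9% to 56.1%). The intervals of the lowest and highest of these shares, in cPS and cPS3, overlap narrowly and cover only the drawing of cells. GINS2, another GINS subunit, was detected in 29.6% to 45.9% of cells over the streak series and in 36.7% in cSR.

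PCNA, the sliding clamp of the replicative polymerases, had a median of 282 CPM in cPS, 391 in cPS1, 358 in cPS2 and 411 in cPS3, against 289 CPM in cSR, and no cell fell below 28.7 CPM. RPA2, a subunit of the protein that coats single-stranded DNA, had a median of 160.3 CPM in cPS, 221 in cPS1, 223 in cPS2 and 299.8 in cPS3, against 291 CPM in cSR. For RPA2 it was therefore cPS3 and cSR that were high and cPS that was low, although cells of all series overlapped. RFC2, a subunit of the clamp loader, and POLA1, the catalytic subunit of the primase-bound polymerase, were detected in 91.9% or more and in 84.7% or more of the cells of each series. POLA1 was pooled at 147.6 CPM in cPS, 216 in cPS1, 145.2 in cPS2 and 198 in cPS3, against 151.97 CPM in cSR.

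The genes of deoxynucleotide supply include the member whose level followed the other S phase genes most closely, RRM2, the small subunit of ribonucleotide reductase. Its median per cell was 491 CPM in cPS, 511 in cPS1, 376 in cPS2 and 468 in cPS3, against 292 CPM in cSR. Streak cells spread from 0 to 1947 CPM and cSR cells from 12.7 to 1440 CPM, so the lower median of cSR lay well within the range of each streak series. RRM1, the large subunit, was detected in at least 96.3% of cells of each series and was pooled at 364 CPM in cPS, 507 in cPS1, 554 in cPS2 and 591 in cPS3, against 435 CPM in cSR. TYMS, thymidylate synthase, was detected in 55.6% of cPS cells (35.3% to 74.5%), 72.97% of cPS1, 79.7% of cPS2 and 88.5% of cPS3 cells (76.6% to 95.6%), against 70% of cSR cells (50.6% to 85.3%). The TYMS intervals of cPS and cPS3 did not overlap, but they take cells as independent draws and do not make cells replicates. These series also share no identifier block. With thinned counts TYMS was no longer among the members that reached the gap limit given below. CCNE2, a cyclin of the G1 to S transition, was detected in 44.4% of cPS cells, 59.5% of cPS1, 49.2% of cPS2 and 65.4% of cPS3 cells (50.9% to 78.03%), against 36.7% of cSR cells (19.9% to 56.1%). It divided cells sharply: its median was between 2.22 and 29.2 CPM in the 5 series, while the highest cell of each series held 483 to 761 CPM.

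**Figure D1:**
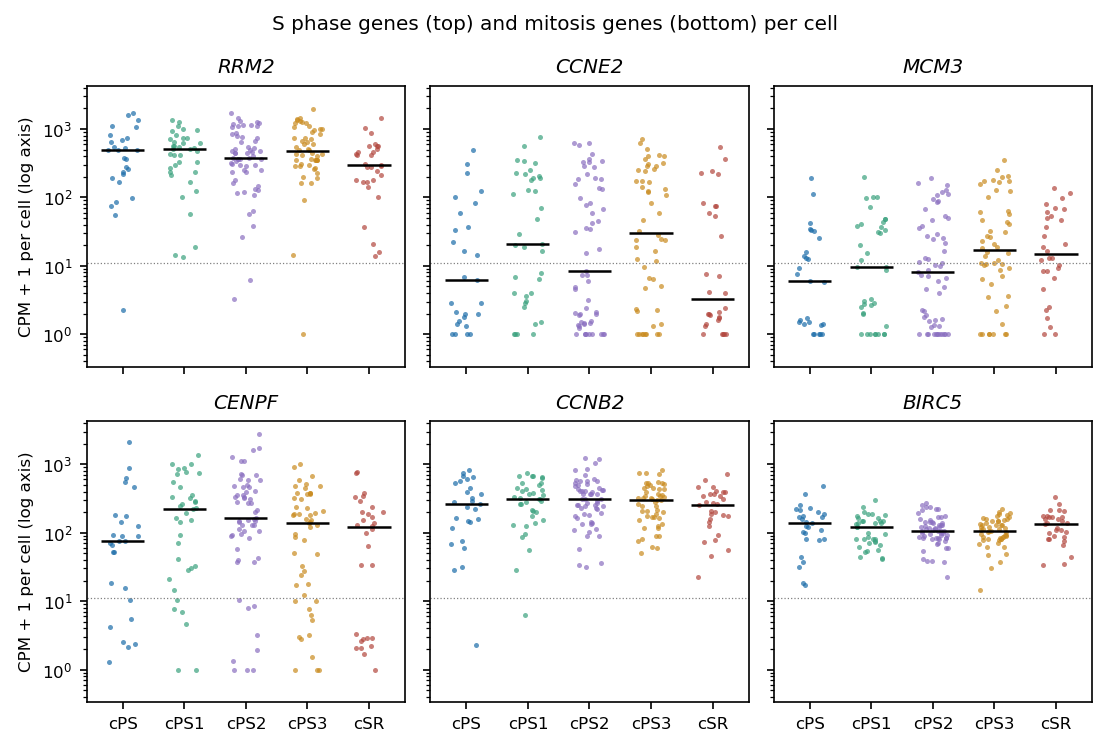
CPM + 1 per cell on a log axis for the S phase genes RRM2, CCNE2 and MCM3 (top) and the mitosis genes CENPF, CCNB2 and BIRC5 (bottom), by title series; each point is a cell, the bar is the median and the dotted line is the detection limit of 10 CPM. Nearly all cells lie above the line for RRM2 and CCNB2 and all do for BIRC5, whereas CCNE2, MCM3 and CENPF have cells on both sides of it in all 5 series.

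Of the kinase CDK1 and its cyclins, CDK1 was detected in every cell, with a median of 836 CPM in cPS, 1122 in cPS1, 1049 in cPS2 and 1026 in cPS3, against 968 CPM in cSR. CCNB2, a B-type cyclin that activates CDK1, had a median of 259.9 CPM in cPS, 313 in cPS1, 305 in cPS2 and 299 in cPS3, against 257 CPM in cSR. Both transcripts varied little between series next to their spread over cells. CCNA2, the cyclin of S and G2 phase, was the mitosis gene detected in the smallest share of cells, at 59.3% in cPS, 54.1% in cPS1, 45.8% in cPS2 and 55.8% in cPS3, against 60% in cSR.

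Kinetochore genes differed strongly from cell to cell. CENPF, a large coiled-coil protein of the kinetochore and nuclear matrix, was detected in 74.1% of cPS cells, 83.8% of cPS1, 84.7% of cPS2 and 76.9% of cPS3 cells, against 66.7% of cSR cells. Its median was 73.6 CPM in cPS, 221 in cPS1, 165.3 in cPS2 and 138.96 in cPS3, against 118.3 CPM in cSR, and single cells reached 2758 CPM in cPS2. The range of CENPF over cells, from under 1 CPM to at least 773 CPM in every series, was far wider than the distance between the medians. BUB1, a kinase of the spindle checkpoint, was detected in 74.1% of cPS cells (53.7% to 88.9%), 91.9% of cPS1, 96.6% of cPS2 (88.3% to 99.6%) and 86.5% of cPS3 cells, against 83.3% of cSR cells. NDC80, which binds microtubules at the kinetochore, was pooled at 139.9 CPM in cPS, 273 in cPS1, 274 in cPS2 and 174 in cPS3, against 227 CPM in cSR. cPS was the lowest of the 5 series for NDC80 and had the smallest BUB1 share. CENPE, a kinesin that moves chromosomes to the spindle equator, and TTK, the checkpoint kinase MPS1, were detected in at least 88.9% and 89.8% of the cells of each series.

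Among the spindle genes, AURKA, a kinase of the spindle poles, was pooled at 247 CPM in cPS, 234 in cPS1, 222 in cPS2 and 231 in cPS3, against 319 CPM in cSR, where 1 cell gave 19.5% of the counts. TPX2, which activates AURKA on microtubules, was detected in 92.6% or more of the cells of each series, PLK1, another mitotic kinase, in 92.3% or more, and KIF11, the kinesin that pushes the poles apart, in 85.2% or more. NUSAP1, which bundles spindle microtubules, was detected in 92.6% of cPS cells and 78.8% of cPS3 cells, against 80% of cSR cells. CKAP2, a microtubule-binding protein of the spindle, was pooled at 241 CPM in cPS, 313 in cPS1, 291 in cPS2 and 219 in cPS3, against 251 CPM in cSR. These spindle transcripts had no order of series in common.

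TOP2A, the topoisomerase that untangles sister chromatids, had a median of 437 CPM in cPS, 930.4 in cPS1, 767 in cPS2 and 751 in cPS3, against 778 CPM in cSR. cPS was again the low series, with cells from 29.1 to 1175 CPM beside the cSR range of 81.5 to 1579 CPM, so that the ranges overlapped. SMC4, a condensin subunit, was pooled at 165.1 CPM in cPS, 170.2 in cPS1, 231 in cPS2 and 178 in cPS3, against 206 CPM in cSR. BIRC5, survivin of the chromosomal passenger complex, had a median of 137.8 CPM in cPS, 120.4 in cPS1, 105.2 in cPS2 and 106.3 in cPS3, against 134.6 CPM in cSR, and its lowest cell held 13.4 CPM. ANLN, the anillin of the cleavage furrow, was detected in 62.96% of cPS cells (42.4% to 80.6%), 78.4% of cPS1, 79.7% of cPS2 and 76.9% of cPS3 cells, against 86.7% of cSR cells (69.3% to 96.2%). Its cPS and cSR intervals overlapped.

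Measured as the gap between the highest and lowest share of cells over the 5 series, 3 of 35 members reached 25 percentage points: TYMS (32.9 points), GINS1 (29.6) and CCNE2 (28.7), each highest in cPS3. Among 9076 genes at 5 CPM or more pooled over all cells 18.7% reached it, a share that the members' 3 of 35 did not exceed. The mitosis genes had gaps of at most 23.7 points, for ANLN, followed by BUB1 with 22.5 and CENPF with 18.1. Counts thinned to 1000000 per cell also gave 3 members, CCNE2, GINS1 and ANLN, while a detection limit of 50 CPM left 1, ANLN. The share over all genes was taken only at 10 CPM on unthinned counts, so these counts of members have none beside them.

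Streak and surrounding region were set against each other in cPS and cSR, which share identifier blocks. Of 35 members, 1 was at least 2-fold higher in cPS and 1 at least 2-fold lower, on log2 of pooled CPM + 1. Among the 9698 genes at 5 CPM or more in either series, 11.7% were at least 2-fold higher and 14% at least 2-fold lower. The member higher in cPS was CDT1, at 16.4 CPM (15.5 to 17.4) against 6.97 CPM (6.37 to 7.62) in cSR (log2 ratio 1.12). It was not steady: the ratio was -0.40 within block 1 and 2.02 within block 2, 1 cell gave 36.3% of the cPS counts, and without the highest cell of each series it was 0.81. The member lower in cPS was GINS1, at 11.99 CPM (11.2 to 12.8) against 25.2 CPM (24.0 to 26.4) in cSR (log2 ratio -1.01), with -1.05 in block 1 and -0.80 in block 2. With the TMM scaling, which raised the log2 ratios of all measured genes by a median of 0.15, GINS1 stood at -0.87. With a pseudocount of 10 CPM the GINS1 ratio was -0.68, and over the same cSR cells it was -0.72 for cPS1, -0.87 for cPS2 and -0.25 for cPS3, with -0.67 for all streak cells.

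The 17 S phase genes had a median log2 ratio of 0.01 and the 18 mitosis genes one of -0.27, beside -0.04 over all measured genes. Block 1 gave medians of -0.33 for S phase and -0.52 for mitosis, block 2 gave 0.14 and -0.03, and all measured genes stood at -0.06 in block 1 and -0.05 in block 2. The mitosis genes lowest in cPS were ANLN (-0.78), NDC80 (-0.69) and TOP2A (-0.67), all below 0 in both blocks, and the highest was CENPF (0.44). Among the S phase genes MCM5 (0.73), MCM4 (0.66) and RRM2 (0.65) were higher in cPS in both blocks, whereas MCM3 stood at -1.27 in block 1 and 0.96 in block 2 and GINS2 (-0.86 with both blocks) at -2.10 and 0.09. Markers of other cell types moved in the same comparison: the 4 endoderm and hypoblast markers measured were all at least 2-fold higher in cPS (median log2 ratio 3.43; 3.97 in block 1 and 1.01 in block 2), and the 4 blood and endothelial markers measured were all at least 2-fold lower (median -3.08; -0.05 in block 1 and -3.40 in block 2). The summed endoderm and hypoblast markers ranged from 0.895 to 8773 CPM over cPS cells and from 0.684 to 319 CPM over cSR cells, with TTR at 0 in cPS and SOX17 at 0 in cSR. The summed blood and endothelial markers ranged from 0 to 490.2 CPM over cPS cells and from 0 to 1981 CPM over cSR cells, with HBZ at 0 in both. Of 6 dissociation stress genes measured 1 was higher and 2 were lower in cPS (median -0.71), and the part of these genes' cells or of stress in the members' ratios was not tested. The share of cells whose mitosis score, defined below, lay above the median of all cells was taken by block. In block 1 it was 25% in cPS (7.27% to 52.4%) against 53.8% in cSR (25.1% to 80.8%). In block 2 it was 18.2% in cPS (2.28% to 51.8%) against 58.8% in cSR (32.9% to 81.6%). These shares rest on 16, 13, 11 and 17 cells, and within each block the intervals overlapped. The share was 59.5% in cPS1 and 44.2% in cPS3, and in cPS2 58.1% in block 3 and 57.1% in block 4. A median of 4561 genes was detected in cPS and 4927 in cSR in block 1, with 4682 and 4903 in block 2. The part of gene number in these shares was not tested.

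**Figure D2:**
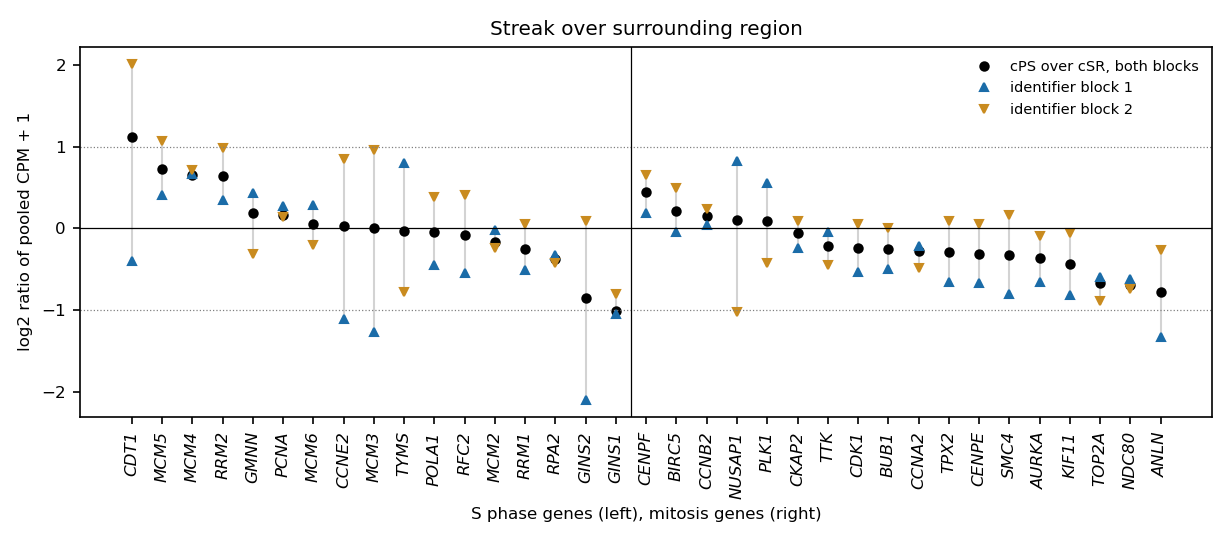
Log2 ratio of pooled CPM + 1 in cPS over cSR for each member, S phase genes at the left and mitosis genes at the right; circles use both identifier blocks, upward triangles block 1 and downward triangles block 2, and dotted lines mark 2-fold. Only CDT1 and GINS1 lie beyond 2-fold with both blocks, and for CDT1, CCNE2 and MCM3, among others, the blocks lie on opposite sides of 0.

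Lists of other cycle genes were set beside the members in the same comparison. Of 46 further S phase genes measured, none was 2-fold apart in either direction (median log2 ratio -0.03), and the highest were CLSPN (0.92), POLA2 (0.89), MCM10 (0.73) and E2F8 (0.67). Of 53 further G2 and M phase genes, 1 was at least 2-fold higher and 2 lower (median -0.07). NCAPG, a condensin subunit, stood at 163.2 CPM in cPS against 74.8 CPM in cSR (1.12), with NCAPH, another condensin subunit, at 0.998. ESPL1, the protease separase, stood at -1.59 and CCNF, a cyclin and F-box protein, at -1.28. Over the same cSR cells CCNF stood at -0.06 in cPS1, 0.26 in cPS2 and 0.18 in cPS3, and ESPL1 at 0.40, -1.33 and 0.11 in these series. Of 23 genes of the G1 list, which holds cyclins, kinases, their inhibitors and the RB family, 2 were higher and 1 lower (median -0.21). RB1, which restrains entry into S phase, stood at 58.2 CPM in cPS against 12.9 CPM in cSR (2.09; 0.78 in block 1 and 3.90 in block 2), with 1 cell giving 46.7% of the cSR counts. CDC14B, a phosphatase, stood at 1.76, with 1 cell giving 57.2% of the cPS counts and 1 cell 39.9% of the cSR counts, and CDK6, a G1 kinase, was at 92.2 CPM in cPS against 259 CPM in cSR (-1.48). CDK6 stood at -1.14 in block 1 and -1.88 in block 2. Over the same cSR cells it was -0.24 in cPS1, -0.67 in cPS2 and -0.73 in cPS3. MYC, a transcription factor that promotes growth, stood at -0.95, with -0.23 in block 1 and -2.51 in block 2. Over the same cSR cells it was -0.87 in cPS1, -0.91 in cPS2 and -0.71 in cPS3.

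Within cells, the members varied together in 2 opposed groups. Spearman correlations were taken over the 205 cells on log2(CPM + 1) after each gene was centred on its series median. They are descriptions of cells that share embryos, library preparation and depth, and carry no p. The pairs of mitosis genes had a median of 0.24, with 99.3% of them above 0 and 47 pairs (30.7%) at 0.3 or more. The pairs of S phase genes had a median of 0.14, with 89.7% above 0 and 11 pairs (8.09%) at 0.3 or more. The 306 pairs of an S phase and a mitosis gene had a median of -0.13, with 11.1% above 0 and none at 0.3 or more. For comparison, 22127878 pairs of genes at 5 CPM or more and in at least 25% of cells had a median of 0.02. Of these pairs 58.3% were above 0 and 0.0895% reached 0.3.

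The same order was seen in each series. Median correlations among mitosis genes were 0.17 in cPS, 0.26 in cPS1, 0.26 in cPS2, 0.25 in cPS3 and 0.27 in cSR. Among S phase genes they were 0.13 in cPS, 0.11 in cPS1, 0.18 in cPS2, 0.16 in cPS3 and 0.08 in cSR. Between the groups they were -0.10 in cPS, -0.14 in cPS1, -0.15 in cPS2, -0.16 in cPS3 and -0.11 in cSR.

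CENPF was the centre of the mitosis group: its correlation was 0.55 with TPX2, 0.50 with CCNB2, 0.49 with CDK1, 0.49 with NUSAP1 and 0.47 with AURKA. In the S phase group the highest were CCNE2 with RRM2 (0.42), MCM3 with RRM2 (0.39) and MCM4 with CCNE2 (0.37). Across the groups RRM2 was the most opposed, at -0.35 with CENPF and -0.35 with TPX2. RPA2 followed the S phase group least: its correlations were -0.14 with GMNN and -0.13 with TYMS, but 0.18 with MCM6, its highest with any member. With BIRC5 it stood at 0.16, the highest of any S phase and mitosis pair.

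**Figure D3:**
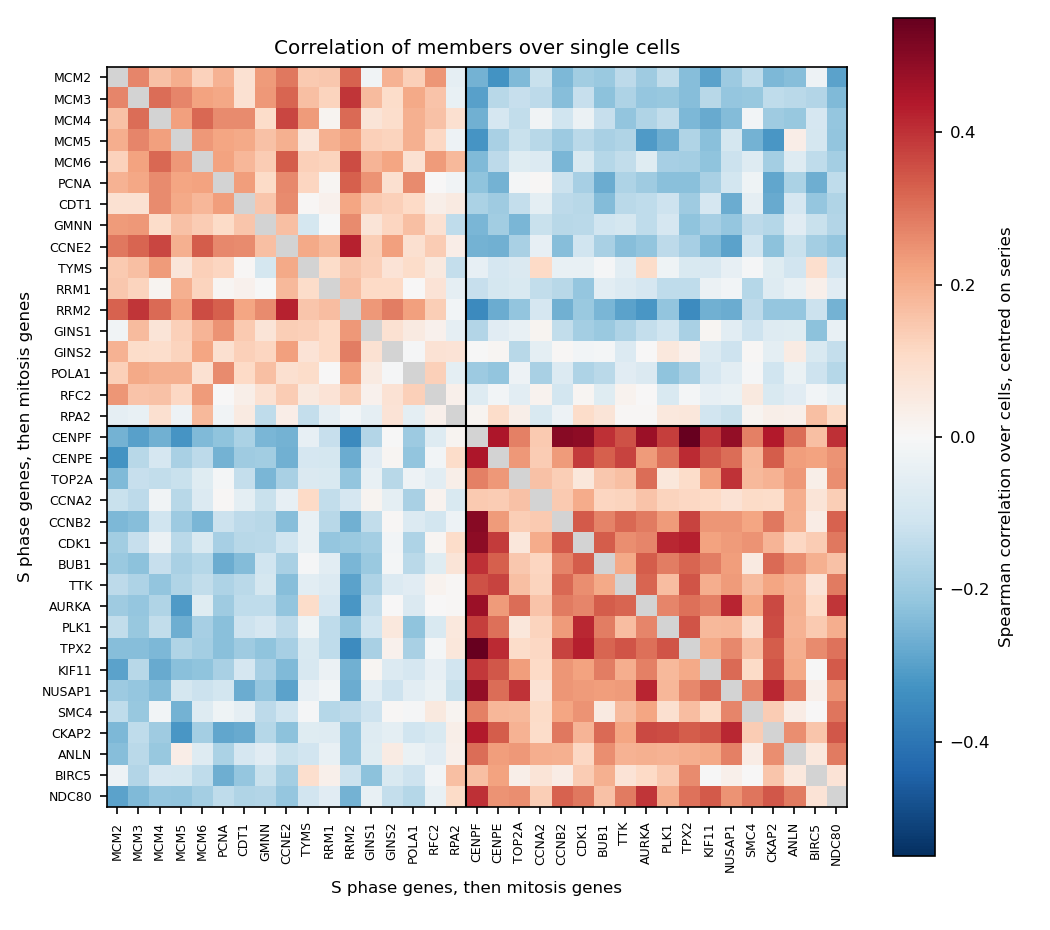
Spearman correlation over 205 cells of log2(CPM + 1), centred on the series, for each pair of the 35 members, with S phase genes first and mitosis genes after them; red is above 0, blue is below 0 and the diagonal is grey. The 2 blocks on the diagonal are mostly red and the blocks between S phase and mitosis genes are mostly blue, and the row of RPA2 is pale, at -0.14 to 0.18.

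A score was taken for each cell as the mean of log2(CPM + 1) over the genes of a group. With the score of the other genes of its own group, 15 of 18 mitosis genes correlated at 0.3 or more, where 1.06% of 6618 other genes did so with the full mitosis score. The median was 0.47, the highest were CENPF (0.72), AURKA (0.54) and CKAP2 (0.53), and the lowest were BIRC5 (0.18), CCNA2 (0.26) and SMC4 (0.29). Of the 17 S phase genes, 9 reached 0.3 with the score of the others, where 0.0756% of 6618 other genes did so with the full S phase score. The median was 0.32, the highest were RRM2 (0.59), CCNE2 (0.55) and MCM4 (0.46), and the lowest were RPA2 (0.01), TYMS (0.21) and GINS1 (0.22). With the score of the opposite group, all 18 mitosis genes lay below 0 (-0.42 to -0.16), as did 16 of 17 S phase genes, the exception being RPA2 at 0.02. The 6618 other genes had a median of 0.02 with the S phase score and 0.04 with the mitosis score. Their share below 0 was not taken. CENPF was between 0.67 and 0.78 with its group in every series, and RRM2 between 0.54 and 0.64. BIRC5, detected in every cell, ranged from -0.11 in cSR to 0.36 in cPS1.

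The S phase score had a median of 5.92 in cPS, 6.06 in cPS1, 6.09 in cPS2 and 6.50 in cPS3, against 5.89 in cSR, on the scale of mean log2(CPM + 1). The mitosis score had a median of 7.01 in cPS, 7.54 in cPS1, 7.49 in cPS2 and 7.09 in cPS3, against 7.57 in cSR. The SD over cells within a series was 0.70 to 1.05 for the S phase score and 1.02 to 1.17 for the mitosis score, so the medians differed by less than 1 SD of the cells. Over 205 cells the scores correlated at -0.49 (Spearman) and -0.45 (Pearson). Within series the Spearman value was -0.30 in cPS, -0.58 in cPS1, -0.48 in cPS2, -0.50 in cPS3 and -0.55 in cSR. The mitosis score correlated at 0.35 with the number of genes detected in a cell and at -0.14 with its log2 total; the S phase score did so at 0.12 and -0.03. The part of gene number in the results with these scores was not tested.

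**Figure D4:**
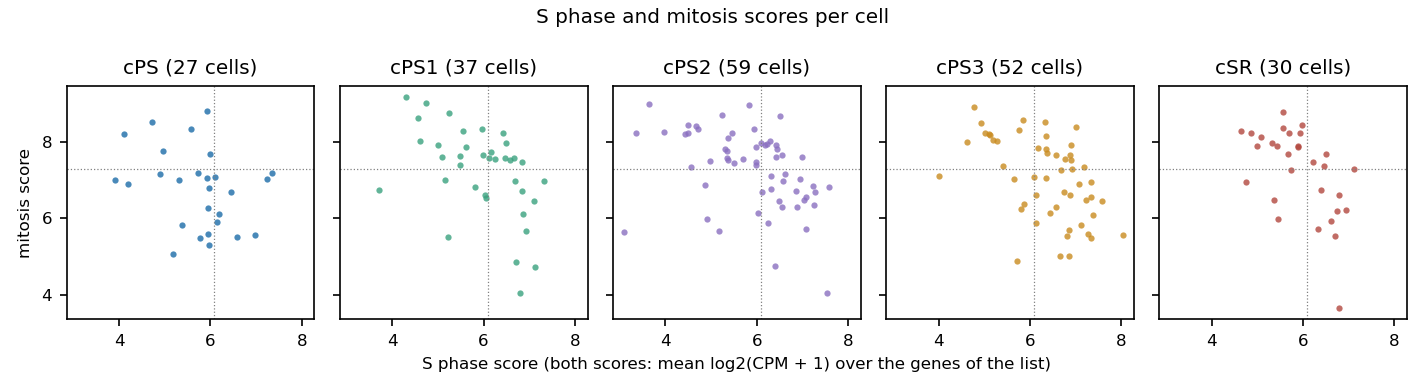
Mitosis score against S phase score, both as mean log2(CPM + 1) over the genes of the group, with 1 panel for each title series and 1 point for each cell; dotted lines are the medians over all 205 cells. The cloud slopes downward in all 5 panels, and cPS has no cell above both medians.

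Genes outside the set that were most like each score were named by the highest Spearman correlation. Nearest to the S phase score were UNG, a uracil-DNA glycosylase (0.50), SLBP, which binds the stem-loop of histone messages (0.48), DTL, an adaptor of the ligase that degrades CDT1 (0.41), HIST1H103 (0.33), UHRF1, which brings DNA methylation to new strands (0.31), POLE, a leading-strand polymerase (0.29), DUT, a dUTPase (0.29), and MAPK12 (0.29). HIST1H103 is a histone gene with near-identical copies, so its count is uncertain. Nearest to the mitosis score were KPNA2, an importin (0.73), the cyclin CCNB3 (0.59), RACGAP1 of the central spindle (0.58), FAM72A (0.57), ASPM of the spindle poles (0.56), TACC3, which stabilises spindle microtubules (0.56), CKS2, a CDK subunit (0.54), and HMMR, a spindle-associated protein (0.53). KPNA2 was at 0.65 to 0.76 with the mitosis score in each series and at -0.52 with the S phase score. Of the 53 further G2 and M phase genes tested, 32 reached 0.3 with the mitosis score (median 0.35) and none with the S phase score. Of 42 further S phase genes, 4 reached 0.3 with the S phase score (median 0.15) and none with the mitosis score, and none of 19 genes of the G1 list reached 0.3 with either.

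The overall medians of the scores, 6.09 for S phase and 7.29 for mitosis, divide the cells into 4 ranges. These are ranges and not cell types: 18 cells lay within 0.1 of the S phase median and 10 within 0.1 of the mitosis median, and no cell was assigned a cycle phase. Over all cells 69 were above the S phase median alone, 69 above the mitosis median alone, 33 above both and 34 below both. In cPS 29.6% of cells were high in S phase alone, 22.2% in mitosis alone, 0 of 27 in both and 48.1% in neither. In cPS3 44.2% were high in S phase alone and 21.2% in mitosis alone. In cPS2 33.9% were high in S phase alone and 42.4% in mitosis alone, and in cPS1 these shares were 24.3% and 35.1%. In cSR 30% were high in S phase alone, 46.7% in mitosis alone, 10% in both and 13.3% in neither. The range below both medians was thus filled most in cPS and made up 8.47% to 16.2% of each of the other 4 series. cPS also had the lowest median of genes detected, 4653 against 4738 to 4919.5 in the other 4 series. Within cPS the number of genes detected correlated at 0.51 with the mitosis score and -0.04 with the S phase score. The part of gene number in these shares was not tested. Since the ranges were cut from these genes, the levels of members in them are only a description: CENPF was pooled at 537 CPM in cells high in mitosis alone and 73.97 CPM in cells high in S phase alone, and CCNE2 at 30.9 CPM in the first range and 196 CPM in the second.

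T, the streak marker, had a Spearman correlation over 205 cells of -0.06 with the S phase score and 0.15 with the mitosis score. With single members the median was -0.04 over the S phase genes and 0.07 over the mitosis genes. The Spearman value of the mitosis score with T was above 0 in all 5 series, from 0.08 in cPS2 to 0.31 in cPS1. The Pearson value was -0.03 in cPS2 and 0.25 to 0.38 in the other series. In streak cells the median of T was 2431 CPM in the range high in both scores, 1203 CPM in that high in S phase alone, 2098 CPM in that high in mitosis alone and 1989 CPM in that below both. T was therefore lowest where only S phase genes were high, but the ranges overlapped, from 236 to 7256 CPM in the first, 6.05 to 8325 CPM in the second, 7.58 to 8607 CPM in the third and 17.2 to 7697 CPM in the last. Of single members, NDC80 had the highest correlation with T (0.18) and GMNN the lowest (-0.17), where 95% of 6652 single genes lay between -0.15 and 0.22.

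CHRD correlated at -0.14 with the S phase score and 0.13 with the mitosis score. Within series its value with the mitosis score was -0.02 in cPS, 0.21 in cPS1, 0.02 in cPS2, 0.19 in cPS3 and 0.25 in cSR. With single members the median was -0.06 over the S phase genes and 0.08 over the mitosis genes, from -0.20 for GMNN to 0.20 for CENPF. The central range of 6653 single genes, cut as for T, was -0.17 to 0.19. Of the members only GMNN, MCM6 and CENPF lay outside it. These correlations rank all 205 cells, and CHRD was under 10 CPM in most of them. In cSR, where no cell had CHRD at 10 CPM, CENPF was at 0.41, GMNN at -0.35 and MCM6 at -0.08. Over the streak series CENPF was at 0.09 to 0.22, GMNN at -0.41 to -0.04 and MCM6 at -0.31 to -0.0015. The S phase score had a median of 5.78 in the 44 streak cells with CHRD at 10 CPM or more and 6.19 in the other streak cells (SD 1.04 and 0.92 over cells). It was lower in cells with CHRD in all 4 streak series, by a difference of -0.19 in cPS, -0.05 in cPS1, -1.14 in cPS2 and -0.49 in cPS3. For the mitosis score the difference had no common sign, at 0.05 in cPS, 0.12 in cPS1, -0.41 in cPS2 and 0.41 in cPS3. Pooled over the streak, 11 of 17 S phase genes were lower in cells with CHRD, where 50.6% of all measured genes were. The median log2 ratio of the S phase genes was only -0.08, beside -0.01 over all measured genes. CCNE2 was at 82.6 CPM in cells with CHRD and 117.03 CPM in cells without (log2 ratio -0.50), GMNN at 130.2 and 167 CPM (-0.36), and RRM2 at 557 CPM in both, whereas CDT1 was at 17.5 CPM with CHRD and 12.1 CPM without (0.50) and TYMS at 68.7 and 57.6 CPM (0.25). The mitosis gene furthest apart was CCNA2, at 26.6 CPM with CHRD and 50.1 CPM without (-0.89), while CENPF was at 379 CPM with CHRD and 246 CPM without (0.62). Over the streak, cells with and without CHRD had median totals of 2415459 and 2504365 counts and medians of 4754 and 4749 genes detected. Within series they were less alike. Median totals with and without CHRD were 2356407 and 2709038 in cPS, 1953204 and 2533987 in cPS1, 3054502 and 2642548 in cPS2, and 2356017 and 2260106 in cPS3. Medians of genes detected were 4552 and 4666 in cPS, 5335.5 and 4727 in cPS1, 4730.5 and 4740 in cPS2, and 4846 and 4852 in cPS3. The part of depth and gene number in the differences by series was not tested.

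MSGN1, a transcription factor of early paraxial mesoderm, correlated at 0.24 with the mitosis score and at 0.00 with the S phase score. With single members the median was 0.13 over the mitosis genes and -0.01 over the S phase genes, from -0.17 for MCM5 to 0.21 for CDK1. The central range of 6652 single genes, cut as for T, was -0.16 to 0.24 (median 0.03). Of the members only MCM5 lay outside it, so the values of the single mitosis genes were common ones. The mitosis score correlated with MSGN1 at 0.07 in cPS, 0.28 in cPS1, 0.09 in cPS2, 0.32 in cPS3 and 0.24 in cSR. Its median was 7.57 in the 57 streak cells with MSGN1 at 10 CPM or more and 7.05 in the other streak cells (SD 0.79 and 1.15 over cells). The difference was 0.90 in cPS, 0.60 in cPS1, 0.20 in cPS2, 0.70 in cPS3 and 0.52 in cSR, so it was above 0 in all 5 series and in each was smaller than the SD of the series' cells. Streak cells with MSGN1 started at 5.31 and those without at 4.05. Pooled over the streak, 59.6% (45.8% to 72.4%) of cells with MSGN1 lay above the overall median, against 43.2% (34.1% to 52.7%) of cells without. Within cPS the order was reversed, with 16.7% of 12 cells with MSGN1 and 26.7% of 15 without. In each of the other series this share was higher with MSGN1. Of the 18 mitosis genes 14 were higher in cells with MSGN1, where 51.3% of all measured genes were, with a median log2 ratio of 0.15. CCNA2 was at 61.4 CPM with MSGN1 and 36.8 CPM without (0.72), CDK1 at 1159 and 991 CPM (0.23), NDC80 at 253 and 212 CPM (0.25), and CENPF at 259.8 and 286 CPM (-0.14). Cells with MSGN1 also had more genes detected, with a median of 4912 against 4688.5, and the part of gene number in the difference was not tested. Of the 17 S phase genes 12 were also higher with MSGN1 (median log2 ratio 0.05). Among them CCNE2 was at 143.9 CPM with MSGN1 and 92.8 CPM without (0.63) and GMNN at 123.1 and 174 CPM (-0.49).

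**Figure D5:**
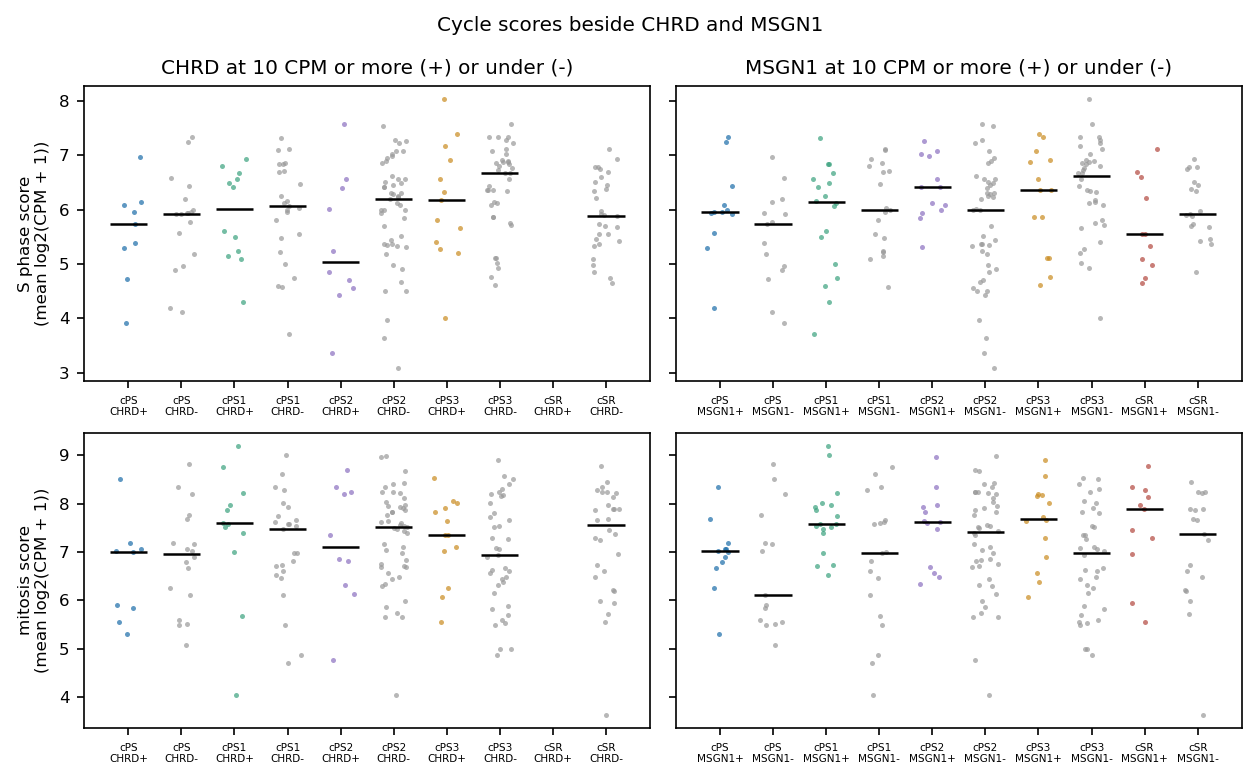
S phase score (top) and mitosis score (bottom) per cell, as mean log2(CPM + 1), for cells with (coloured) and without (grey) CHRD (left) or MSGN1 (right) at 10 CPM or more, by title series; bars are medians, and cSR has no cell with CHRD. The median S phase score is lower with CHRD in all 4 streak series and the median mitosis score is higher with MSGN1 in all 5 series, while the cells overlap in each.

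The streak series could be compared with each other within block 4, which holds 52 cells of cPS3 and 28 of cPS2; this comparison was chosen after the values by series had been seen. Of the 17 S phase genes 13 were higher in cPS3 (median log2 ratio 0.29), where 49.8% of 9541 measured genes were above 0. Of the 18 mitosis genes 16 were lower in cPS3 (median -0.27), where 50.2% of measured genes were below 0. MCM3 was at 62.2 CPM in cPS3 and 26.8 CPM in cPS2 (1.18), CCNE2 at 142.97 and 87.2 CPM (0.71), RPA2 at 308 and 211 CPM (0.54), and RRM2 at 635 and 451 CPM (0.49). CENPF was at 190.7 CPM in cPS3 and 373 CPM in cPS2 (-0.96), NDC80 at 174 and 316 CPM (-0.86), and SMC4 at 178 and 279.9 CPM (-0.65), whereas CDK1 was at 1125 and 1019 CPM (0.14). The median S phase score was 6.50 in cPS3 and 6.17 in cPS2, and the median mitosis score 7.09 in cPS3 and 7.55 in cPS2, with SDs over cells of 0.87 to 1.10. Median totals were 2262998 counts in cPS3 and 2744193 in cPS2. Other markers differed between these cells too: the 6 epiblast markers summed to a median of 1144 CPM in cPS3 (82.9 to 3125) and 658 CPM in cPS2 (63.1 to 2322), and the 6 endoderm and hypoblast markers to 38.02 CPM in cPS3 (0 to 842) and 89.2 CPM in cPS2 (0 to 5683), with TTR at 0 in both. Over all 205 cells the S phase score correlated with the summed epiblast markers at 0.18, above 0 in all 5 series. The 7 dissociation stress genes summed to a median of 7186 CPM in cPS3 (1399 to 14494) and 7757 CPM in cPS2 (4453 to 13212.5). Their sum correlated with the mitosis score at 0.17 over all cells, from -0.33 in cPS to 0.39 in cPS2, with 0.21 in cPS3. With the S phase score it stood at -0.11, from -0.27 in cPS2 to 0.03 in cPS. The part of these markers' cells or of stress in the block 4 ratios was not tested. In block 3, where cPS2 (31 cells) and cPS1 (37 cells) meet, the median log2 ratio of cPS2 over cPS1 was 0.01 for the S phase genes and 0.07 for the mitosis genes, beside -0.06 over all measured genes. There 13 of 18 mitosis genes and 9 of 17 S phase genes were above 0, where 45.6% of 9607 measured genes were.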

How the data were processed

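Per the labels, single-cell cDNA libraries were made with a Nextera XT kit. The authors deposited 2 tables of RSEM expected counts per gene; the submitters' processing notes name CASAVA 1.8.2, Bowtie 0.12.9 (0.12.8 for 1 cell), RSEM 1.2.3 and the build galGal4, without settings. Totals differ between cells, so the tables are not scaled to a common total. The streak table was held only in part and its last, incomplete row was dropped, as were 640 genes (3.42% of counts) complete only in the surrounding-region table. CPM are relative to the 20581 common genes, with a pseudocount of 1 CPM in log2 ratios, which understates ratios of low genes. No cell was removed and no doublet caller was run; the highest correlation between any 2 cells was 0.857.

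The members and lists were chosen with earlier results of these data known. Named genes were the members with the 3 largest and smallest detection gaps per group, those 2-fold apart and those with the 3 highest and lowest correlations with their group, the other members more briefly, up to 4 genes of each other cycle list by ratio, and the 8 most like each score. Of the further lists, 48 of 54 S phase, 54 of 68 G2 and M phase and 28 of 34 G1 names were matched. Alternatives used other pseudocounts, detection limits, scalings (TMM of edgeR 4.0.16, size factors of DESeq2 1.42.0 on rounded counts, R 4.3.3), thinned counts, blocks and subsets of cells. Python 3.11.15, numpy 2.4.6, scipy 1.17.1 and pandas 2.3.3 were used, with methods checked on simulated data.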

Additional observations from a re-analysis of the deposited data

How the results depend on the processing

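With 1 sample for each tissue no test was made. Of 194 values of 18 results under their alternatives, 32 moved beyond the limit used and 1, CDT1 in block 1, was counted as reversed. The limit was a spread over series or, for counts of members, a fold change. A change of sign was counted as reversed only for main ratios of at least 2-fold and main correlations of at least 0.3 in absolute value. Only CDT1, GINS1 and the correlation of the scores with each other could thus be counted as reversed. The S phase and mitosis medians, CDT1, and the correlations of the S phase score with CHRD and MSGN1 each crossed 0 under some. The number of members 2-fold apart in cPS over cSR, 2 in all, was 0 with a pseudocount of 10 CPM or with all streak cells, 1 with TMM factors, DESeq2 size factors, mean CPM per cell, cPS1 or cPS2, and 5 in block 1. It was 3 in block 2, with 2 higher and 1 lower in cPS. Without the highest cell of each gene in each series it was also 3, all lower in cPS, and no share over all genes was taken there. Of 9663 genes measured in block 1, 1590 were at least 2-fold higher in cPS and 1913 at least 2-fold lower, a larger share than that of the members. In block 2 these were 1670 and 2085 of 9529 genes, also a larger share. The S phase median (0.01) was -0.33 in block 1, 0.26 with cPS1, 0.21 with cPS2, 0.40 with cPS3 and 0.27 with all streak cells. The mitosis median (-0.27) was -0.12 with TMM factors, -0.52 in block 1, -0.025 in block 2, -0.018 with cPS1, 0.031 with cPS2 and -0.064 with all streak cells. CDT1 was -0.40 in block 1. At a detection limit of 50 CPM 1 member reached a gap of 25 points, where no share over all genes was taken. In cSR cells alone the median correlation among S phase genes was 0.077, that of the S phase score with T -0.29 and with CHRD 0.012. The cause of these changes was not tested. The correlation of the scores with each other was -0.55 to -0.45 over 13 settings, including cells of at least 1000000 counts and scores without BIRC5 and RPA2, both added after the data were seen; that of the mitosis score with MSGN1 was 0.13 to 0.27. No paired analysis was possible because the title numbers name cells and not replicates, and no result comes from a test. The search of promoters for motifs was not run, since no promoter sequence was at hand. Genes near 10 CPM, such as CDT1 and GINS1, rest on few counts in most cells.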

Other observations

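In the part of the surrounding-region table that was not compared, 4 genes of the cycle were read in cSR cells alone, with CPM relative to all genes of that table. MKI67, the proliferation marker Ki-67, was pooled at 338 CPM, with cells from 1.24 to 1228 CPM, and was detected in 96.7% of 30 cells. BUB3, a spindle checkpoint protein, was pooled at 594 CPM, with cells from 108.5 to 1257 CPM, and was detected in 100%. ORC2, a subunit of the origin recognition complex, was pooled at 81.3 CPM and detected in 80%, and SGOL2, a shugoshin that protects centromeric cohesion, was pooled at 6.83 CPM and detected in 16.7%.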
